A study of Mus musculus with 93 samples.

Results

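The phase II conjugation enzymes described here are the glutathione S-transferases, the microsomal glutathione S-transferases, the UDP-glucuronosyltransferases and the sulfotransferases counted in mouse liver. They were chosen by gene symbol, with the rule that a gene had at least 10 reads in at least 5 mice and was not annotated as a pseudogene. Of 75 symbols that matched, 7 were pseudogenes and 10 fell below the count rule, which left 58 genes among the 19235 of 53465 genes that met the same count rule. These were 21 GSTs (4 alpha, 1 kappa, 7 mu, 2 omega, 3 pi, 3 theta and 1 zeta), 3 MGSTs, 19 UGTs (8 Ugt1, 8 Ugt2, 2 Ugt3 and 1 Ugt8) and 15 SULTs (5 Sult1, 5 Sult2, 2 Sult3 and 1 each of Sult4, Sult5 and Sult6). The choice used gene names and this count rule, and no contrast between diets or strains. It was, however, made with earlier results of these data known. The rule can be met through few strains, and 8 members met it only through mice of 1 or 2 strains. All 58 also passed the filter for testing.

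Bulk liver RNA was sequenced from 93 male mice of 7 inbred strains, of which C57BL/6J, DBA/2J, A/J and 129S1/SvImJ are classical laboratory strains and WSB/EiJ, CAST/EiJ and PWK/PhJ are wild-derived. All mice were kept at 30 °C, which is thermoneutral for mice, and from 7 weeks of age received either a control diet (CD, 10% of energy from fat) or a western-style diet (WD, 40% of energy from fat). The CD and WD groups held 8 and 8 C57BL/6J mice, 6 and 7 DBA/2J, 5 and 6 A/J, 7 and 6 129S1/SvImJ, 6 and 6 WSB/EiJ, 7 and 8 CAST/EiJ, and 6 and 7 PWK/PhJ, with each library made from 1 mouse. Each strain was raised in 2 cohorts, 3 for CAST/EiJ, and every cohort held both diets. No cohort held all 7 strains, and the cohorts of WSB/EiJ held no other strain. Strain differences are therefore confounded with cohort in part, and wholly for WSB/EiJ. Each strain is 1 inbred genotype, so strain comparisons are between 7 genotypes, in males only.

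Phase II enzymes attach a water-soluble group to drugs, hormones, bile acids, bilirubin and reactive lipid products, which can then leave the hepatocyte for bile or blood. GSTs use glutathione, UGTs use UDP-glucuronic acid or a related sugar nucleotide, and SULTs use the sulfate donor PAPS. Liver is a main site of these reactions, several of the genes are known to be expressed at different levels in male and female mouse liver, and many respond to xenobiotic-sensing nuclear receptors or to NRF2, the regulator of the antioxidant response.

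Reads assigned to genes ranged from 40020424 to 49894856 per library, with a median of 46618609, and the 58 genes took 0.769 to 1.86% of them. Reads were aligned to the C57BL/6J reference genome, and 1.66 to 14.8% were unmapped, with the highest share in CAST/EiJ. Hepatocyte markers were present in every group, at summed levels of 62934 to 213449 CPM (counts scaled to the library's size). Their summed median was lower on WD in all 7 strains (PWK/PhJ 122650.0 to 74551 CPM, DBA/2J 121827 to 108247 CPM), and 2 to 5 of the 9 markers were called lower in each strain. Leukocyte markers were called higher for 9 of 9 in PWK/PhJ, C57BL/6J and 129S1/SvImJ, for 5 in WSB/EiJ, 2 in A/J, 1 in CAST/EiJ and 0 in DBA/2J by limma-voom (0 there at an unadjusted p below 0.05, and 0 with edgeR or DESeq2). Kupffer cell markers were called higher for at most 3 of 6 in a strain. Endothelial markers were called higher for at most 2 of 7 in a strain and lower for 3 in DBA/2J, 2 in C57BL/6J and 1 each in WSB/EiJ and PWK/PhJ. Stellate cell and fibroblast markers were called higher for 5 of 8 in PWK/PhJ, 3 each in C57BL/6J and 129S1/SvImJ and 2 in A/J, and cholangiocyte markers higher for 5 of 7 in PWK/PhJ, 2 in CAST/EiJ and 1 each in C57BL/6J and 129S1/SvImJ and lower for 1 each in C57BL/6J, DBA/2J and A/J. Pancreatic acinar markers were called higher for 0 of 7 in every strain, although single mice reached 2049 CPM of them in sum. Of the 49 tests of acinar markers, 2 had an unadjusted p below 0.05, and 8 were called with edgeR and 4 with DESeq2. In bulk tissue, fewer cells of a type and less RNA per cell cannot be told apart, and the part of these marker shifts in the results that follow was not tested.

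Some libraries stood apart over many of the 58 genes. In C57BL/6J, CD mouse 2 differed more than 2-fold from its group median for 18 of them and WD mouse 3 for 12, and the same mice carried the highest cholangiocyte marker sums of their groups (470.4 against a median of 81.0 CPM on CD, and 433 against 130.1 CPM on WD). In WSB/EiJ, WD mouse 4 was the lowest of its group for 28 members and had the lowest hepatocyte marker sum, 62934 CPM. Where a named call in these groups was lost without 1 of these mice, that value is given beside it. PWK/PhJ WD mouse 6 was the highest of its group for 32 members and CAST/EiJ CD mouse 2 for 27, and no fit was made without either.

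Paralogs limit what the counts can separate. Over stretches of 50 bases of the annotated transcripts, 20 members shared none with any other gene, 20 shared more than 20% and 13 shared more than 50%. The Ugt1 members are alternative first exons joined to common later exons, and each of the 8 shared between 59.7% (Ugt1a8) and 100% (Ugt1a6a) of its stretches with other genes. Gsta1 shared 89.7%, most of it with Gm3776, Gsta2 64.2%, Gstp1 62.3% and Gstp2 72.6%. Sult1e1 shared none, Sult3a1 6.15% and Sult3a2 7.72%. Opposite-strand genes overlap exons of Gstm5, Gstz1, Sult1a1, Sult6b1 and the Ugt1 members, and the strand setting of the counting is not given in the sources used here, so the assignment of reads from overlapping bases is uncertain. Reads that aligned to several places (8.03 to 12.2% of a library) and reads that overlapped several genes (3.69 to 5.67%) were counted apart from the genes, so the levels of members with shared sequence rest on their remaining stretches. Ugt1a6a had no such stretch in the transcript examined, so what its counts rest on is uncertain.

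Per kilobase of annotated exon and averaged over all mice, Mgst1 was the most abundant member at 1249.6 CPM per kb, followed by Gstm1 at 936 and Gstp1 at 412. Sult3a1 ranked next at 359 CPM per kb, although only CAST/EiJ and PWK/PhJ mice exceeded 0.728 CPM. Ugt2b5 (318), Ugt2b36 (308) and Ugt2b1 (284) were the most abundant UGTs, and Sult1a1 (184) and Sult2a8 (177) the next SULTs. With the length of the longest transcript, Ugt2b36 (335) lay above Ugt2b5 (318) and Sult2a8 (271) above Sult1a1 (202). Both lengths include stretches shared with other genes. Strain accounted for a median of 78.8% of the variance of log2 CPM of a member, against 54.8% for all 19110 genes tested, and diet for 1.02% against 2.30%. Ugt3a2 (98.6%), Gstt1 (97.8%) and Ugt1a10 (97.0%) had nearly all of their variance between strains, whereas Mgst1 had 26.5% of its variance between diets. These shares are descriptions and carry no test.

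WD changed members of each of the 4 families. By limma-voom at an adjusted p below 0.05, with the shares of all genes tested that were called in the same direction in parentheses, C57BL/6J had 14 higher and 6 lower (14.3 and 11.9%). DBA/2J had 17 higher and 3 lower (10.2 and 7.77%), 129S1/SvImJ 14 higher and 4 lower (14.5 and 13.6%), WSB/EiJ 11 higher and 7 lower (4.97 and 3.97%) and CAST/EiJ 9 higher and 6 lower (9.77 and 9.73%). A/J had 3 higher and 0 lower (4.39 and 4.64%), where 2 members were lower at an unadjusted p below 0.05, 0 by edgeR and 2 by DESeq2. PWK/PhJ had 4 higher and 16 lower (15.1 and 14.5%), so that more members were lower than higher there alone. The median log2 fold change over the 58 members was 0.29 in DBA/2J, 0.21 in WSB/EiJ, 0.16 in CAST/EiJ, 0.12 in 129S1/SvImJ, 0.10 in A/J, 0.01 in C57BL/6J and -0.21 in PWK/PhJ, whereas the median over all genes lay between -0.01 and 0.02 in each strain. With a separate fit for each strain 10 members were called in C57BL/6J and 8 in A/J, and in A/J DESeq2 called 7 and sample quality weights 14. With every gene of any count tested, 11 were called in WSB/EiJ.

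No member was called in all 7 strains by limma-voom, against 0.513% of all genes tested. Of the 58, 8 were called in 0 strains (32.9% of all genes), 18 in 1 (29.7%), 13 in 2 (17.9%), 10 in 3 (10.5%), 6 in 4 (4.76%), 2 in 5 (2.44%) and 1 in 6 (1.23%). The 8 never called were Gstp2, Sult1d1, Sult2a2, Sult2a8, Sult4a1, Ugt1a8, Ugt2a3 and Ugt8a, of whose 56 tests 2 had an unadjusted p below 0.05 and 2 each were called by edgeR and DESeq2. Of the other 50, 24 were called only higher (32.1% of all genes), 21 only lower (29.5%), and 5 (Gsta4, Gsto2, Ugt1a9, Ugt1a10 and Ugt2b34) higher in at least 1 strain and lower in another (5.42%). The WD mice lay wholly above the CD mice for 14 in 129S1/SvImJ (9.23%), with the share of all genes in parentheses, 9 in DBA/2J (4.68%), 5 in A/J (4.14%), 3 in WSB/EiJ (2.5%), 3 in PWK/PhJ (6.59%), 1 in C57BL/6J (0.806%) and 2 in CAST/EiJ (0.952%). They lay wholly below for 9 in PWK/PhJ (6.02%), 4 in CAST/EiJ (1.28%), 3 in WSB/EiJ (1.86%), 2 in DBA/2J (2.6%), 1 in A/J (3.94%), 0 in C57BL/6J (0.973%) and 0 in 129S1/SvImJ (7.18%).

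**Figure D1:**
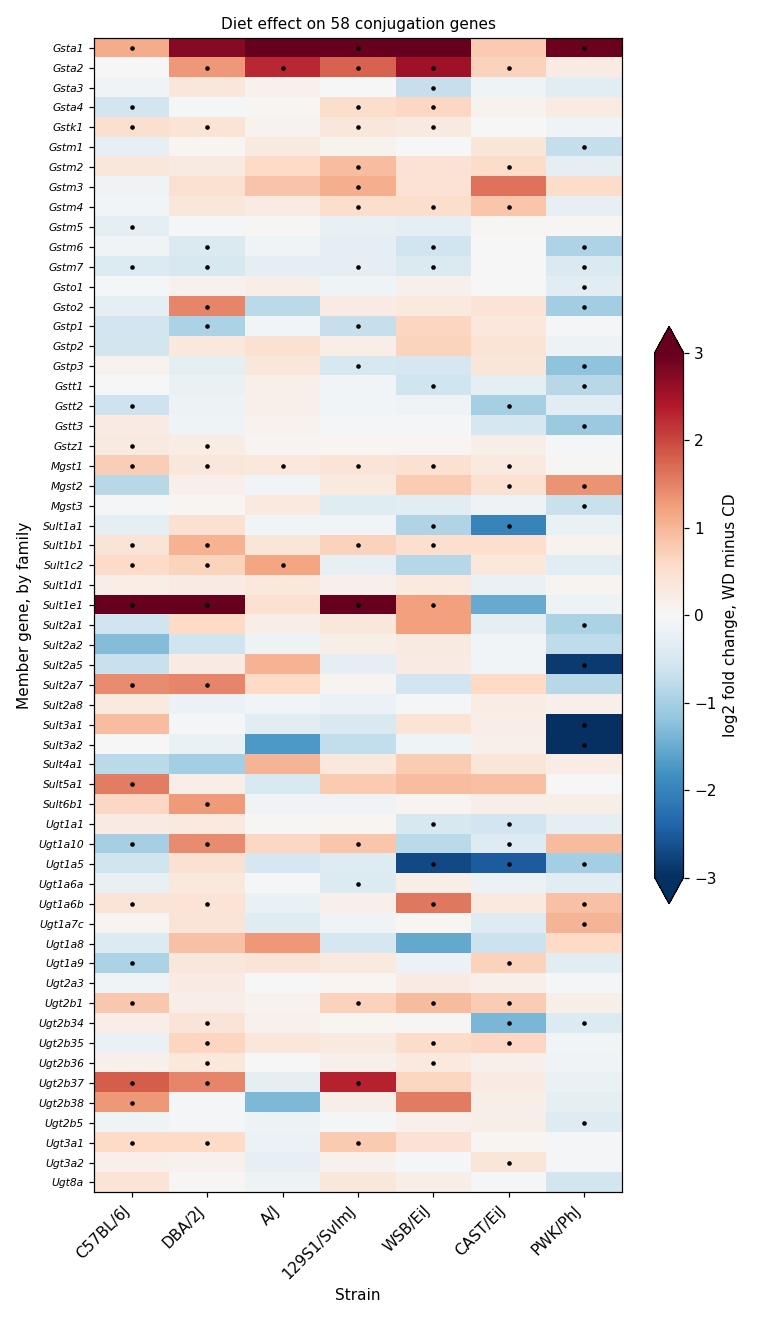
Log2 fold change of WD against CD for the 58 conjugation genes (rows, by family) in 7 strains (columns), with a dot where the adjusted p is below 0.05. The PWK/PhJ column holds 16 members called lower and 4 called higher, with log2 fold changes of -8.65 for Sult3a1 and -7.97 for Sult3a2.

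Among the alpha-class GSTs, which also reduce lipid hydroperoxides, Gsta2 rose on WD in 5 strains. In A/J the 5 CD mice had 2.33, 1.79, 2.76, 2.62 and 1.55 CPM, and the lowest, median and highest WD mice had 5.51, 13.3 and 16.0 CPM (log2 fold change 2.27 ± 0.52, adjusted p = 0.00199, with the standard error after ±). In 129S1/SvImJ it went from 4.62, 5.96 and 9.57 CPM to 16.0, 22.4 and 26.4 CPM (1.77 ± 0.33, adjusted p = 2.37e-05), where each trio of values is again the lowest, median and highest mouse of a group. In both strains every WD mouse exceeded every CD mouse. WSB/EiJ went from 2.02, 2.75 and 3.53 CPM to 3.40, 20.6 and 24.8 CPM (2.54 ± 0.47, adjusted p = 4.26e-05), and WD mouse 4 alone overlapped the CD range. DBA/2J rose from a median of 3.41 to 8.87 CPM (1.30 ± 0.43, adjusted p = 0.0253) and CAST/EiJ from 93.8 to 134 CPM (0.69 ± 0.24, adjusted p = 0.0322), with overlap in both. C57BL/6J and PWK/PhJ gave 0.01 ± 0.26, adjusted p = 0.988 and 0.24 ± 0.26, adjusted p = 0.546. The CAST/EiJ call was lost with edgeR (adjusted p = 0.0653) and DESeq2 (adjusted p = 0.0675).

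Gsta1, which also lies on chromosome 9, was at or near 0 in several CD groups and was called higher in 3 strains. In 129S1/SvImJ it went from 0.0217, 0.0851 and 0.189 CPM to 1.42, 2.29 and 3.42 CPM (log2 fold change 4.58 ± 0.98, adjusted p = 0.000183), and in PWK/PhJ from 0.403, 0.626 and 1.14 CPM to 3.60, 4.88 and 7.82 CPM (2.95 ± 0.59, adjusted p = 4.52e-05). No WD mouse of these strains overlapped the CD mice. In C57BL/6J it went from 0.506, 1.46 and 23.4 CPM to 1.14, 6.62 and 14.4 CPM (1.12 ± 0.37, adjusted p = 0.0159), and the WD range lay inside the CD range. That call was lost with edgeR, which gave a log2 fold change of 0.21 (adjusted p = 0.758), and with DESeq2 (0.22, adjusted p = 0.789). In DBA/2J 5 of the 6 CD mice had 0 reads of Gsta1, and the WD mice had 0.0427 to 0.173 CPM (adjusted p = 0.316).

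Gsta1 and Gsta2 lie on opposite strands, and their promoters are shown because both genes rose in 129S1/SvImJ. The sequences run from 250 bases before to 50 bases after the annotated start and come from RefSeq on GRCm38.p6, at chr9:78230419-78230718 on the plus strand for Gsta1 and chr9:78347096-78347395 on the minus strand for Gsta2. In the GENCODE annotation used for gene lengths, Gsta2 begins upstream of this window, at chr9:78355788. The window may thus not hold the start of the transcripts counted. Capitals mark letters that matched the searched motifs, which were GTTAAT for HNF1, TTCNNNGAA for STAT5, TGACNNNGC for the antioxidant response element, GCGTG for AHR, AGGTCA for nuclear receptors and TATAAA for the TATA box, on both strands.
Gsta1: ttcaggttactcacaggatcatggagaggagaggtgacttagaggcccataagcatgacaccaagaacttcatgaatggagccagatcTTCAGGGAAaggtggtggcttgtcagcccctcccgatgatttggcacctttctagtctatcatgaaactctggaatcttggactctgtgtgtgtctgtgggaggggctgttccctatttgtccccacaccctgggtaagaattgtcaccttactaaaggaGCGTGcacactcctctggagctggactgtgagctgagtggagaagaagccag
Gsta2: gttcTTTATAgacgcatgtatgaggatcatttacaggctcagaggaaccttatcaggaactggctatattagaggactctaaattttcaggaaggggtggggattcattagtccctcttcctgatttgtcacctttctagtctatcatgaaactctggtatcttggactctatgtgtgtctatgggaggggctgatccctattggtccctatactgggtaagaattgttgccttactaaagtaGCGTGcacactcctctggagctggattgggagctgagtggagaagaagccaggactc
With the start base as 0, Gsta1 held TTCNNNGAA at -162 to -154 and GCGTG at -2 to 2, and Gsta2 held GCGTG at -7 to -3 and, on the other strand, TATAAA at -246 to -241. Laid side by side without gaps, 88 of the 300 bases were identical, and the longest run present in both was 29 bases. GCGTG and the nearly identical letters after it lie at shifted positions in the 2 windows. The count without gaps therefore does not measure how alike the promoters are, and no alignment with gaps was made. Neither held TGACNNNGC, and no match says only that these letters are not in this window.

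Gsta3 and Gsta4 complete the alpha class. Gsta3, which in the mouse conjugates the epoxide of aflatoxin, had group medians of 261 to 1034 CPM and was called lower in WSB/EiJ, from 249, 404 and 561 CPM to 115, 261 and 369.5 CPM (log2 fold change -0.70 ± 0.19, adjusted p = 0.00914), and without WSB/EiJ WD mouse 4 this became -0.48 (adjusted p = 0.0878). Gsta4, which conjugates hydroxynonenal from lipid peroxidation, changed in opposite directions. It fell in C57BL/6J from 45.3, 67.7 and 93.8 CPM to 30.2, 45.1 and 61.6 CPM (-0.57 ± 0.12, adjusted p = 0.000163). It rose in 129S1/SvImJ from 20.3, 23.7 and 25.6 CPM to 28.5, 33.0 and 36.4 CPM (0.52 ± 0.14, adjusted p = 0.0029) without overlap, and in WSB/EiJ from 25.2, 29.6 and 31.7 CPM to 23.8, 48.0 and 55.5 CPM (0.62 ± 0.14, adjusted p = 0.00162). Its diet effect differed between strains (F = 9.09, adjusted p = 6.64e-06).

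Of the 7 mu-class GSTs, Gstm1 was the most abundant per kb and Gstm7 was called in the most strains. Gstm7 fell on WD in 5 strains, by 0.30 to 0.49 on the log2 scale. In PWK/PhJ it went from 91.6, 108 and 118 CPM to 73.6, 75.5 and 90.0 CPM (-0.44 ± 0.09, adjusted p = 0.000111) and in DBA/2J from 58.6, 72.1 and 86.3 CPM to 44.3, 48.0 and 57.01 CPM (-0.49 ± 0.09, adjusted p = 4.63e-05), with no overlap in either. CAST/EiJ gave -0.02 ± 0.09, adjusted p = 0.909 and A/J -0.27 ± 0.10, adjusted p = 0.0723. Gstm1 was called in PWK/PhJ alone, where it fell from 549, 617 and 740.4 CPM to 322, 384 and 458 CPM without overlap (-0.71 ± 0.15, adjusted p = 0.000117), and the effect there was lower than the mean of the other strains by 0.81 (adjusted p = 0.00023). The diet call was lost when every gene of any count was tested (adjusted p = 0.134). Gstm4 rose in CAST/EiJ (0.82 ± 0.14, adjusted p = 6.74e-06), WSB/EiJ (0.54 ± 0.16, adjusted p = 0.0221) and 129S1/SvImJ (0.52 ± 0.15, adjusted p = 0.00541). Gstm2, Gstm5 and Gstm6, which the naming rule did not select, gave 2 calls higher and 4 lower over the 7 strains. The shares of all genes in a strain were 4.39 to 15.1% higher and 3.97 to 14.5% lower.

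Gstm3 divided the strains on CD. Its CD median was 78.1 CPM in C57BL/6J, 61.3 in DBA/2J, 41.4 in 129S1/SvImJ, 27.5 in A/J and 21.2 in WSB/EiJ, but 0.441 in CAST/EiJ and 0.111 in PWK/PhJ. The highest CAST/EiJ or PWK/PhJ mouse on CD had 2.93 CPM and the lowest mouse of the other strains 17.5 CPM. C57BL/6J CD mice themselves spread from 53.5 to 634 CPM, with mice 2, 4 and 6 at 412 CPM or above and the other 5 at 84.2 CPM or below. The same 3 mice, from both cohorts of the strain, had 5.29 CPM or more of Gsta1 and the other 5 at most 1.53 CPM. Gstm3 rose on WD in 129S1/SvImJ from 33.1, 41.4 and 49.4 CPM to 69.7, 85.1 and 109 CPM without overlap (log2 fold change 1.10 ± 0.36, adjusted p = 0.015).

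The single kappa-class enzyme Gstk1, found in mitochondria and peroxisomes, rose in C57BL/6J from 55.2, 67.4 and 85.3 CPM to 67.1, 96.6 and 106 CPM (log2 fold change 0.48 ± 0.07, adjusted p = 4.84e-07), and in DBA/2J from 60.3, 65.3 and 74.6 CPM to 82.3, 84.7 and 94.3 CPM without overlap (0.42 ± 0.08, adjusted p = 9.65e-05). It also rose in 129S1/SvImJ (0.34 ± 0.08, adjusted p = 0.00096) and WSB/EiJ (0.27 ± 0.09, adjusted p = 0.038). The PWK/PhJ level on CD, 213 to 264 CPM, lay above every CD mouse of the other strains. Gstz1, an isomerase of tyrosine breakdown, rose in C57BL/6J (0.27 ± 0.07, adjusted p = 0.00259) and DBA/2J (0.23 ± 0.08, adjusted p = 0.0335), the latter without overlap. Gsto1, which can reduce dehydroascorbate, fell in PWK/PhJ from 46.4, 48.8 and 56.2 CPM to 33.8, 39.6 and 50.5 CPM (-0.33 ± 0.08, adjusted p = 0.000622). Gsto2 was at or below 2.05 CPM in every mouse, and was called higher in DBA/2J (1.45 ± 0.45, adjusted p = 0.0148) and lower in PWK/PhJ (-1.05 ± 0.26, adjusted p = 0.00116).

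Gstp1, the main pi-class enzyme of mouse liver and known to be male-predominant, fell in DBA/2J from 1024, 1221 and 1262 CPM to 476, 621 and 818 CPM, with no overlap (log2 fold change -0.94 ± 0.27, adjusted p = 0.00848). In 129S1/SvImJ it went from 354, 666 and 937 CPM to 262, 426 and 534 CPM (-0.70 ± 0.26, adjusted p = 0.0359), a call lost with upper-quartile scaling (adjusted p = 0.0606). Group medians ran from 167 CPM in PWK/PhJ to 1265 CPM in CAST/EiJ, where single mice spread from 487 to 2485 CPM on CD and from 483 to 2252 CPM on WD. Because Gstp1 and Gstp2 share most of their sequence, the division of reads between them is uncertain.

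Gstp3 separated the wild-derived strains from each other. CAST/EiJ CD mice had 233, 256 and 304 CPM, above all other CD mice, and PWK/PhJ CD mice had 2.49, 3.62 and 6.69 CPM, below all others. It fell further on WD in PWK/PhJ to 1.20, 1.60 and 2.15 CPM without overlap (log2 fold change -1.20 ± 0.30, adjusted p = 0.00111), and fell in 129S1/SvImJ from a median of 41.9 to 26.7 CPM (-0.47 ± 0.15, adjusted p = 0.0107). The theta-class Gstt1, which acts on small halogenated compounds, fell in PWK/PhJ from 199, 208 and 246 CPM to 106, 123 and 138 CPM without overlap (-0.83 ± 0.13, adjusted p = 3.2e-07) and in WSB/EiJ from 44.2, 69.3 and 98.0 CPM to 34.1, 44.6 and 72.0 CPM (-0.59 ± 0.13, adjusted p = 0.00076). In CAST/EiJ it was at 3.10, 4.07 and 5.06 CPM on CD, below every CD mouse of the other 6 strains. Of the members outside the naming rule, Gstt2 was called lower on WD in C57BL/6J and CAST/EiJ (log2 fold changes of -0.63 and -0.99) and Gstt3 in PWK/PhJ (-1.12). All 3 theta members were called lower on CD in CAST/EiJ (31.5% of all genes) and higher in PWK/PhJ (30.2% of all genes).

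**Figure D2:**
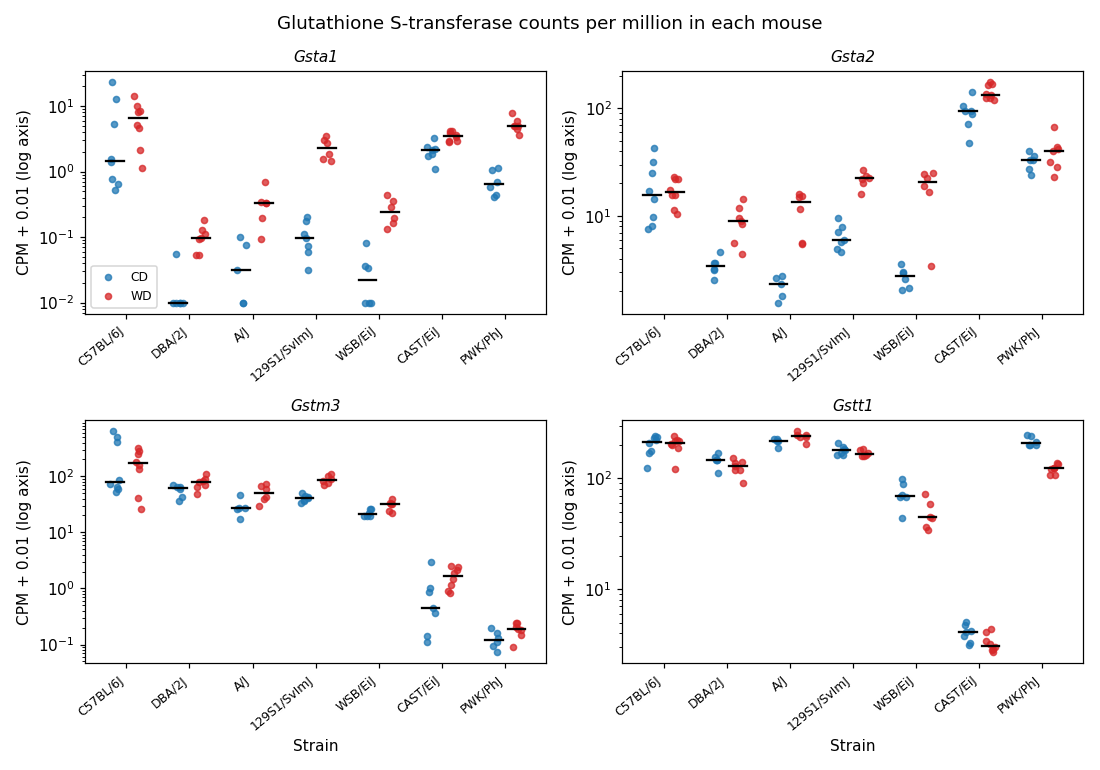
CPM + 0.01 on a log axis for Gsta1, Gsta2, Gstm3 and Gstt1 in each mouse, by strain, with CD in blue, WD in red and a bar at each group median. Gsta2 on WD lies above all CD mice in A/J and 129S1/SvImJ, and Gstt1 in CAST/EiJ lies at 2.696 to 5.06 CPM over both diets.

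Mgst1, a membrane enzyme of the endoplasmic reticulum and outer mitochondrial membrane with peroxidase activity, was the member called in the most strains, higher in 6. C57BL/6J went from 1153, 1923 and 2458 CPM to 1965, 3237 and 3762 CPM (log2 fold change 0.73 ± 0.09, adjusted p = 2.24e-10). WSB/EiJ went from 1849, 2055 and 2258 CPM to 2559.9, 2812 and 3041 CPM (0.46 ± 0.10, adjusted p = 0.000505), and 129S1/SvImJ from 1834, 2067 and 2268 CPM to 2532, 2670.2 and 2886 CPM (0.38 ± 0.10, adjusted p = 0.00122). In WSB/EiJ and 129S1/SvImJ, and likewise in A/J, the mice on the 2 diets did not overlap. The A/J CD mice had 1764, 1788, 1483, 1659.8 and 1702 CPM and the WD mice 1855, 2057 and 2519.8 CPM (0.31 ± 0.10, adjusted p = 0.037), and this call was lost without CD mouse 3, 4 or 5 (adjusted p = 0.098, 0.0556 and 0.0505) and with cohort in the fit (adjusted p = 0.0856). DBA/2J gave 0.34 ± 0.10, adjusted p = 0.00578 and CAST/EiJ 0.30 ± 0.09, adjusted p = 0.0115. PWK/PhJ gave 0.04 ± 0.10, adjusted p = 0.789, and its diet effect was lower than the mean of the other strains by 0.38 (adjusted p = 0.00601). Mgst2, which can make a cysteinyl leukotriene, had CD medians of 8.84 CPM in CAST/EiJ and 3.26 in PWK/PhJ against at most 0.187 in the other strains. It rose in PWK/PhJ from 2.89, 3.26 and 5.47 CPM to 6.51, 8.70 and 12.1 CPM without overlap (1.34 ± 0.17, adjusted p = 1.03e-09), and it was also called higher in CAST/EiJ (0.45 ± 0.13, adjusted p = 0.00944), a call lost with edgeR (adjusted p = 0.0836), DESeq2 (adjusted p = 0.063) and a separate fit for that strain (adjusted p = 0.181). Mgst3, outside the naming rule, was called in PWK/PhJ alone, where its log2 fold change was -0.66.

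In the Ugt1 family, Ugt1a5 fell in the 3 wild-derived strains. It went in WSB/EiJ from 2.62, 12.5 and 17.7 CPM to 0.564, 1.58 and 4.00 CPM (log2 fold change -2.70 ± 0.55, adjusted p = 0.000282), in CAST/EiJ from 4.74, 8.64 and 11.9 CPM to 0.905, 1.44 and 3.00 CPM without overlap (-2.51 ± 0.49, adjusted p = 8.38e-05), and in PWK/PhJ from 59.7, 123 and 151 CPM to 42.2, 55.8 and 72.5 CPM (-1.02 ± 0.26, adjusted p = 0.0013). The classical strains gave -0.59 to 0.45 with none called. Ugt1a6b, of the subfamily that glucuronidates small phenols, rose in WSB/EiJ from 2.84, 8.00 and 22.0 CPM to 13.2, 24.0 and 37.7 CPM (1.58 ± 0.19, adjusted p = 2.18e-09) and in PWK/PhJ from 4.10, 6.68 and 8.13 CPM to 9.43, 11.1 and 13.9 CPM without overlap (0.88 ± 0.20, adjusted p = 0.000339). Rises of Ugt1a6b in DBA/2J (0.42 ± 0.15, adjusted p = 0.0471) and C57BL/6J (0.38 ± 0.13, adjusted p = 0.0209) lost their call with edgeR (adjusted p = 0.0952 and 0.0907) and DESeq2 (adjusted p = 0.0819 and 0.0731), the former also with RIN in the fit (adjusted p = 0.0579) and the latter without CD mouse 2 (0.27, adjusted p = 0.0969). Ugt1a5 and Ugt1a6b, which share their later exons, thus moved in opposite directions in the WSB/EiJ and PWK/PhJ mice.

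Ugt1a9 and Ugt1a10 were called in both directions. Ugt1a9, a phenol glucuronidating form, fell in C57BL/6J from 15.4, 18.5 and 43.2 CPM to 3.86, 11.7 and 25.3 CPM (log2 fold change -0.94 ± 0.18, adjusted p = 1.77e-05) and rose in CAST/EiJ from 22.1, 26.6 and 37.2 CPM to 32.9, 42.9 and 53.8 CPM (0.68 ± 0.17, adjusted p = 0.0014). These strains also had the lowest medians, since those of the other 5 were 91.7 to 259 CPM. Ugt1a10 was at 78.7, 107 and 114 CPM in CAST/EiJ on CD, while the highest CD mouse of any other strain had 2.30 CPM. It fell in CAST/EiJ to 64.5, 76.0 and 91.2 CPM (-0.40 ± 0.08, adjusted p = 6.98e-05) and in C57BL/6J from a median of 0.267 to 0.145 CPM (-0.99 ± 0.35, adjusted p = 0.0264). It rose without overlap in DBA/2J from 1.02, 1.42 and 2.30 CPM to 2.98, 4.02 and 4.72 CPM (1.42 ± 0.19, adjusted p = 7.77e-09) and in 129S1/SvImJ from a median of 0.759 to 1.37 CPM (0.83 ± 0.24, adjusted p = 0.00539). PWK/PhJ had 0 reads in 4 of 6 CD mice. Of the members outside the naming rule, Ugt1a1, the bilirubin glucuronidating form, was called lower in WSB/EiJ and CAST/EiJ (-0.47 and -0.57), Ugt1a6a lower in 129S1/SvImJ (-0.40) and Ugt1a7c higher in PWK/PhJ (1.01). The 8 Ugt1 members gave 8 calls higher and 9 lower over the 7 strains. Of all genes tested, 4.39 to 15.1% were called higher in a strain and 3.97 to 14.5% lower.

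Ugt2 enzymes glucuronidate steroids, bile acids and many drugs, and the diet effect on Ugt2b34 had the largest F between strains among the 58 (F = 33.6, adjusted p = 2.67e-16). In CAST/EiJ it fell from 168, 189 and 274 CPM to 50.3, 68.5 and 119.5 CPM, with every WD mouse below every CD mouse (log2 fold change -1.38 ± 0.10, adjusted p = 5.34e-20). In PWK/PhJ it fell from 292, 401 and 477 CPM to 270.3, 287 and 316 CPM (-0.41 ± 0.11, adjusted p = 0.00233), and in DBA/2J it rose from 246, 295 and 341 CPM to 311, 389 and 433 CPM (0.40 ± 0.11, adjusted p = 0.00605). The other 4 strains gave 0.04 to 0.19, with none called. The effect in CAST/EiJ was lower than the mean of the other strains by 1.44 (adjusted p = 2.9e-18).

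Ugt2b1 rose in 4 strains. In C57BL/6J mice it went from 145, 229.6 and 343 CPM to 248, 446 and 619 CPM (log2 fold change 0.81 ± 0.18, adjusted p = 0.000244), and in WSB/EiJ from 442, 619.5 and 1156 CPM to 591, 1399 and 1951 CPM (0.95 ± 0.21, adjusted p = 0.00119). In CAST/EiJ it went from 1041, 1266 and 1542 CPM to 1825, 2036 and 2328 CPM (0.76 ± 0.20, adjusted p = 0.00281) and in 129S1/SvImJ from 341, 406 and 489 CPM to 589.6, 662 and 752 CPM (0.69 ± 0.20, adjusted p = 0.00643), and in these strains the diets did not overlap. Ugt2b37 rose in C57BL/6J from 0.907, 2.30 and 2.93 CPM to 1.79, 7.01 and 27.8 CPM (1.82 ± 0.36, adjusted p = 4.28e-05), in 129S1/SvImJ from 0.105, 0.369 and 0.681 CPM to 0.766, 1.68 and 2.67 CPM without overlap (2.30 ± 0.73, adjusted p = 0.0128) and in DBA/2J from a median of 1.26 to 5.23 CPM (1.46 ± 0.49, adjusted p = 0.0267). Ugt2b38 was called higher in C57BL/6J (1.31 ± 0.47, adjusted p = 0.0297), but without CD mouse 2, at 0.134 CPM the lowest of its group, the value was 0.58 (adjusted p = 0.263), and the call was also lost with edgeR (adjusted p = 0.072), DESeq2 (adjusted p = 0.0856) and sample quality weights (adjusted p = 0.417). CD medians of Ugt2b37 and Ugt2b38 were highest in CAST/EiJ (11.6 and 67.0 CPM) and PWK/PhJ (15.4 and 71.2 CPM). Ugt2b5 fell in PWK/PhJ from 624, 709 and 836 CPM to 441, 557 and 764 CPM (-0.38 ± 0.12, adjusted p = 0.0148), and shares 34.8% of its sequence stretches with Ugt2b38. Ugt2a3, Ugt2b35 and Ugt2b36, outside the naming rule, gave 5 calls higher and 0 lower. The shares of all genes in a strain were 4.39 to 15.1% higher and 3.97 to 14.5% lower.

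Ugt3 enzymes use sugar nucleotides other than UDP-glucuronic acid. Ugt3a2 fell into high and low strains on CD with no mouse between, since C57BL/6J, DBA/2J, A/J and 129S1/SvImJ mice had 172 to 389 CPM and WSB/EiJ, CAST/EiJ and PWK/PhJ mice 22.0 to 38.6 CPM. The division followed classical against wild-derived origin, and the change called on WD, a rise in CAST/EiJ (log2 fold change 0.36 ± 0.09, adjusted p = 0.00251), was smaller. Ugt3a1, outside the naming rule, was called higher in 3 strains. Ugt8a, which makes the galactolipid of myelin, had group medians of at most 0.314 CPM and was not called on WD in any strain by limma-voom, edgeR or DESeq2, nor at an unadjusted p below 0.05.

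**Figure D3:**
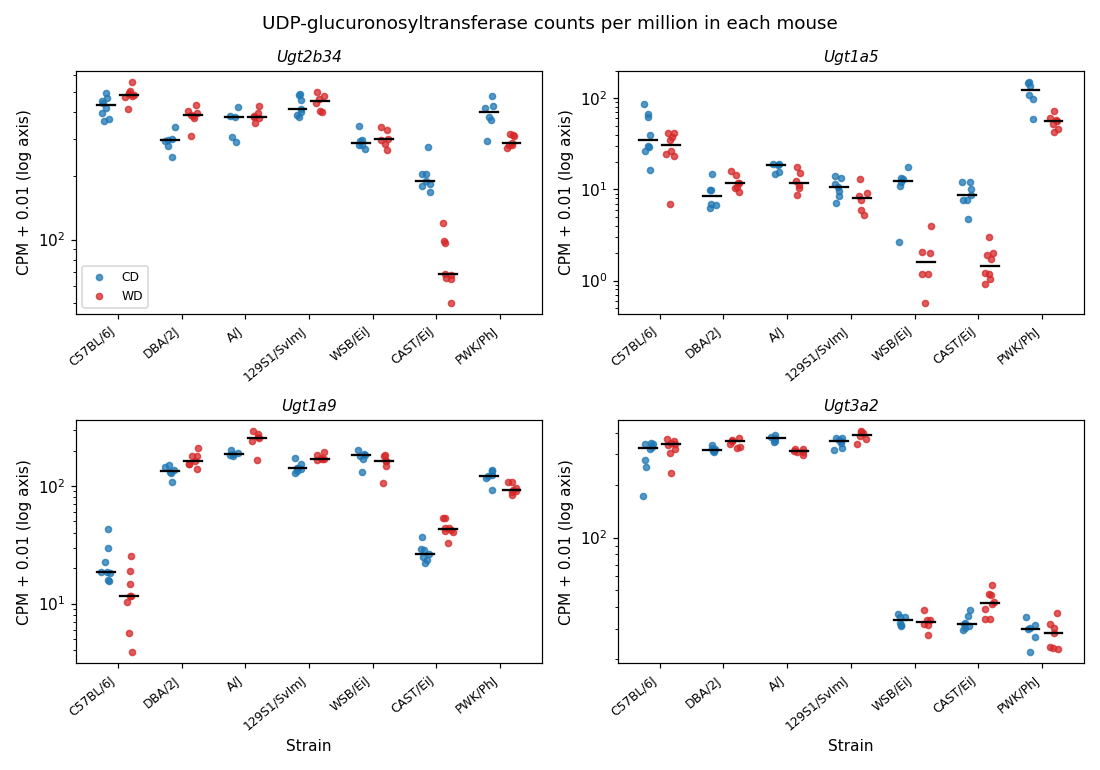
CPM + 0.01 on a log axis for Ugt2b34, Ugt1a5, Ugt1a9 and Ugt3a2 in each mouse, by strain, with CD in blue, WD in red and a bar at each group median. The CAST/EiJ mice on WD lie below those on CD for Ugt2b34 and Ugt1a5, and Ugt3a2 lies at or below 53.8 CPM in the 3 wild-derived strains.

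Sult1e1, the estrogen sulfotransferase, had the largest called rise of the 58 members. In 129S1/SvImJ it went from 0.147, 0.425 and 1.60 CPM to 14.0, 23.2 and 43.0 CPM, with no overlap (log2 fold change 5.91 ± 0.65, adjusted p = 4.6e-11), and this rise exceeded the mean of the other strains by 4.71 (adjusted p = 8.41e-05). It rose in DBA/2J from 0.0442, 0.131 and 0.314 CPM to 0.449, 1.89 and 8.10 CPM without overlap (3.79 ± 1.00, adjusted p = 0.00392). In WSB/EiJ it went from 27.6, 35.9 and 108 CPM to 40.5, 126 and 164 CPM (1.23 ± 0.25, adjusted p = 0.000215), a call lost with edgeR (adjusted p = 0.148) and DESeq2 (adjusted p = 0.401). In C57BL/6J it went from 0, 0.0190 and 3.85 CPM to 0.0564, 0.628 and 4.86 CPM (3.37 ± 1.16, adjusted p = 0.0228). CD mouse 2 was the mouse at 3.85 CPM, and the value was 4.35 without it (adjusted p = 0.011), 0.92 by edgeR (adjusted p = 0.278) and 1.03 by DESeq2 (adjusted p = 0.304). A/J, CAST/EiJ and PWK/PhJ mice were at or below 0.439 CPM.

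Sult1a1, the main phenol sulfotransferase, fell in CAST/EiJ from 119.9, 189 and 273 CPM to 21.8, 44.8 and 104 CPM (log2 fold change -2.01 ± 0.15, adjusted p = 3.07e-18) and in WSB/EiJ from 281, 399 and 509 CPM to 135, 239 and 256 CPM (-0.90 ± 0.18, adjusted p = 0.000183). In neither strain did the diets overlap. DBA/2J went from 277, 291 and 334 CPM to 347, 409 and 479 CPM, also without overlap, though it was not called (0.45 ± 0.17, adjusted p = 0.062). The effect differed between strains (F = 24.1, adjusted p = 4.37e-13). Sult1c2 rose in A/J, where the CD mice had 8.23, 7.39, 14.6, 12.0 and 9.02 CPM and the WD mice 16.4, 23.5 and 26.3 CPM (1.17 ± 0.17, adjusted p = 9.96e-07), and also in DBA/2J (0.67 ± 0.18, adjusted p = 0.00507) and C57BL/6J (0.57 ± 0.21, adjusted p = 0.038). The C57BL/6J call was lost with cohort in the fit (adjusted p = 0.0673), with every gene of any count tested (adjusted p = 0.0622) and in a separate fit (adjusted p = 0.0595). In WSB/EiJ it was at 0.0779 to 0.681 CPM on CD, below all CD mice of the other strains. Sult1b1 and Sult1d1, outside the naming rule, gave 4 calls higher and 0 lower. The shares of all genes in a strain were 4.39 to 15.1% higher and 3.97 to 14.5% lower.

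Sult2 enzymes sulfate steroids and bile acids, and several are known to be female-predominant in mouse liver. Sult2a8, which sulfates bile acids, had group medians of 323 to 808 CPM and was not called on WD in any strain by limma-voom (adjusted p from 0.631 to 0.994), edgeR or DESeq2, nor at an unadjusted p below 0.05. C57BL/6J CD mouse 2 had 6.64 CPM and WD mouse 3 28.0 CPM of it, each the lowest of its group. Sult2a1 met the count rule only through PWK/PhJ, so its level there against the other strains is a description. It was at 27.0, 57.4 and 97.2 CPM in PWK/PhJ on CD, while the CD mice of the other strains lay at or below 0.162 CPM apart from C57BL/6J CD mouse 2 at 1.85 CPM. On WD it went to 6.03, 30.8 and 73.5 CPM in PWK/PhJ (log2 fold change -0.94 ± 0.23, adjusted p = 0.000736), a call lost with edgeR (adjusted p = 0.107) and DESeq2 (adjusted p = 0.569). Sult2a7 rose in DBA/2J from 0.717, 0.980 and 1.24 CPM to 1.88, 2.73 and 4.09 CPM without overlap (1.45 ± 0.38, adjusted p = 0.00379), and was called higher in C57BL/6J (1.43 ± 0.45, adjusted p = 0.0129) but not without CD mouse 2 (1.03, adjusted p = 0.0624). Of Sult2a2 and Sult2a5, outside the naming rule, the latter was called lower in PWK/PhJ.

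Sult3a1 and Sult3a2, of a subfamily known for amine sulfation and for higher expression in female mouse liver, gave the largest called changes of the 58 members. In PWK/PhJ, Sult3a1 went from 82.7, 153 and 588 CPM to 0.116, 0.519 and 1.49 CPM (log2 fold change -8.65 ± 0.51, adjusted p = 5.17e-25) and Sult3a2 from 5.43, 10.5 and 73.1 CPM to 0, 0.0399 and 0.157 CPM (-7.97 ± 0.88, adjusted p = 1.09e-11). The diets did not overlap for either gene, and PWK/PhJ CD mouse 3 was the highest for both. Without that mouse the log2 fold changes were -8.29 (adjusted p = 5.2e-30) and -7.44 (adjusted p = 3.96e-19). In CAST/EiJ both genes were high on either diet. Sult3a1 was at 1624, 2425 and 3078 CPM on CD and 2319, 2535 and 3072 CPM on WD (0.20 ± 0.21, adjusted p = 0.573), and Sult3a2 at 309, 417 and 529 CPM and 368, 419 and 557 CPM (0.14 ± 0.19, adjusted p = 0.667). The other 5 strains had at most 0.728 CPM of Sult3a1 and 0.231 CPM of Sult3a2. Sult3a2 met the count rule only through CAST/EiJ and PWK/PhJ, so its levels between strains are a description. The diet effect in PWK/PhJ was lower than the mean of the other strains by 8.76 (adjusted p = 1.24e-18) for Sult3a1 and by 7.52 (adjusted p = 9.59e-08) for Sult3a2. Of those strains, the 5 near 0 had little room to fall, so these differences are a description.

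Their promoters are shown because both genes were high in CAST/EiJ and both fell in PWK/PhJ. Sult3a1 starts on the plus strand of chromosome 10 (chr10:33857472-33857771, GRCm38.p6, RefSeq) and Sult3a2 on the minus strand (chr10:33782066-33782365), with 250 bases before and 50 after the start, and capitals mark the same motifs as for Gsta1. In the GENCODE annotation Sult3a2 begins upstream of its window, at chr10:33786704, so the same limit holds as for Gsta2.
Sult3a1: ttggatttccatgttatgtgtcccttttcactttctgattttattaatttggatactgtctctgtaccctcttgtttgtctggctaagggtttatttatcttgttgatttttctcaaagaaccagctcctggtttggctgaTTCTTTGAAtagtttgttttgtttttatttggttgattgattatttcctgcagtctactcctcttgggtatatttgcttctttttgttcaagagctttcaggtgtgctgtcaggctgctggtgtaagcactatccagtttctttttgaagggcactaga
Sult3a2: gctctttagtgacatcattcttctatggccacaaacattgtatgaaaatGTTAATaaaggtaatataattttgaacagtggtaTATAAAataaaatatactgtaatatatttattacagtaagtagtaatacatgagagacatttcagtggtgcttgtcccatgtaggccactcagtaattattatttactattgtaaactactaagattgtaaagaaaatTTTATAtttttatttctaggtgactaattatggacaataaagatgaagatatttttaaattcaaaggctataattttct
Sult3a1 held TTCNNNGAA at -109 to -101, and Sult3a2 held GTTAAT at -201 to -196 and TATAAA at -167 to -162 and, on the other strand, at -29 to -24. Without gaps 77 of 300 bases were identical and the longest shared run was 9 bases, and no alignment with gaps was made. Of the 50 members with a promoter in the RefSeq table, 6 held TTCNNNGAA (9.55% of all 27025 genes in that table), 11 GTTAAT (8.24%), 4 TGACNNNGC (13.99%), 12 GCGTG (35.15%), 12 AGGTCA (18.13%) and 10 TATAAA (15.67%). A match is a description of letters, not of a bound factor, and binding was not measured.

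The remaining SULTs had low or strain-limited levels. Sult5a1 was at 44.1, 80.7 and 91.8 CPM in PWK/PhJ on CD, above the 0.109 to 13.3 CPM of all other CD mice, and rose on WD in C57BL/6J from 0.302, 0.534 and 1.10 CPM to 1.11, 1.44 and 4.12 CPM without overlap (log2 fold change 1.54 ± 0.54, adjusted p = 0.0258), a call lost with sample quality weights (adjusted p = 0.054) and when every gene of any count was tested (adjusted p = 0.0865). Sult4a1, a brain form, and Sult6b1 had group medians of at most 0.685 and 0.256 CPM, and of the pair Sult6b1 alone was called on WD, in DBA/2J (1.28 ± 0.47, adjusted p = 0.0462), a call lost with edgeR (adjusted p = 0.0615) and DESeq2 (adjusted p = 0.0674).

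**Figure D4:**
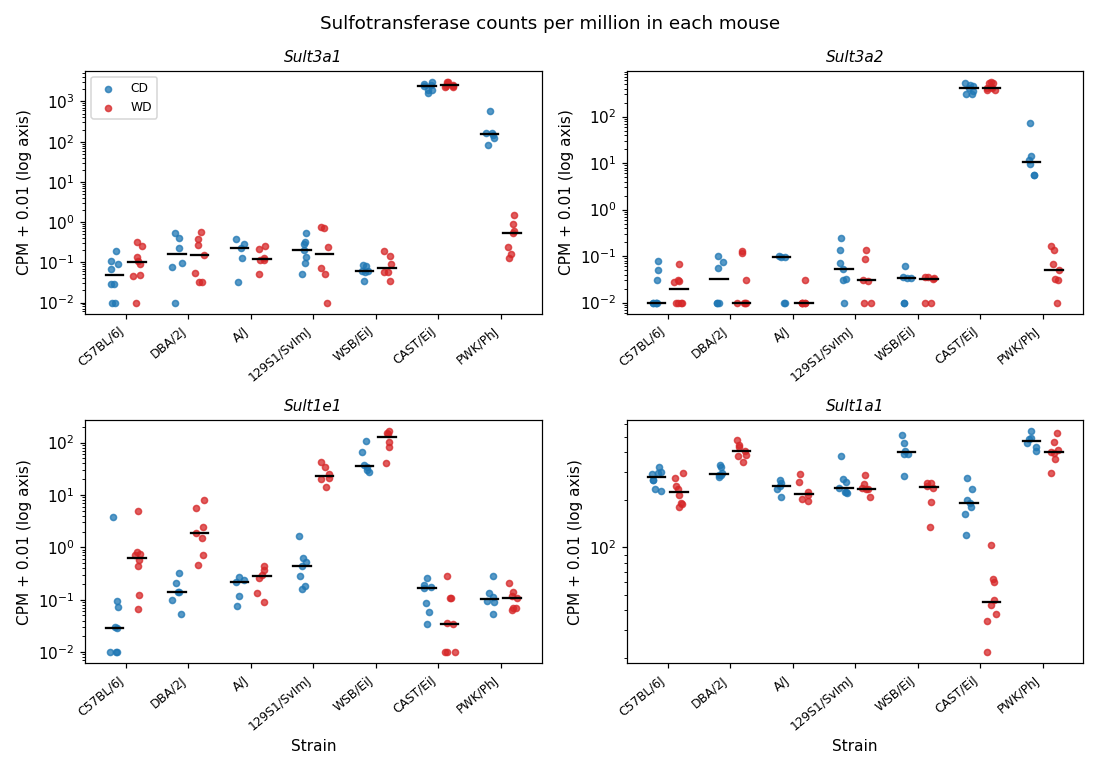
CPM + 0.01 on a log axis for Sult3a1, Sult3a2, Sult1e1 and Sult1a1 in each mouse, by strain, with CD in blue, WD in red and a bar at each group median. Sult3a1 in PWK/PhJ lies at 82.7 to 588 CPM on CD and at or below 1.49 CPM on WD, and Sult1e1 in 129S1/SvImJ lies at or below 1.60 CPM on CD and at or above 14.0 CPM on WD.

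Calls of members were also lost in a wider and in a narrower fit. Testing every gene of any count, which adds low genes to the fit and the adjustment, ended the call for Gsta2 in DBA/2J, Gsta3 in WSB/EiJ, Gstm1 in PWK/PhJ, Gstm3 in 129S1/SvImJ, Gstm4 in WSB/EiJ, Gstp1 in 129S1/SvImJ, Gstt1 in WSB/EiJ, Mgst1 in A/J, Sult1c2 in C57BL/6J, Sult5a1 in C57BL/6J, Sult6b1 in DBA/2J, Ugt1a10 in C57BL/6J, Ugt1a6b in DBA/2J, Ugt2b38 in C57BL/6J and Ugt3a2 in CAST/EiJ (adjusted p from 0.0622 to 0.282). A separate fit for each strain, which estimates the spread from that strain's mice alone, ended it for Gsta1 in C57BL/6J, Gsta3 in WSB/EiJ, Gstk1 in WSB/EiJ, Gstt1 in WSB/EiJ, Gstz1 in C57BL/6J, Mgst2 in CAST/EiJ, Sult1c2 in C57BL/6J, Sult1e1 in C57BL/6J and WSB/EiJ, Sult2a1 in PWK/PhJ, Sult2a7 in C57BL/6J, Sult6b1 in DBA/2J, Ugt1a10 in C57BL/6J, Ugt1a6b in C57BL/6J, Ugt1a9 in C57BL/6J, Ugt2b1 in WSB/EiJ, Ugt2b37 in DBA/2J and Ugt2b38 in C57BL/6J (adjusted p from 0.0526 to 0.349). Among the named genes of the 8 lists, the wider test also ended the call for Abcb1a in PWK/PhJ, Abcg2 in A/J, Bcl6 in A/J, Cyp2b10 in 129S1/SvImJ, Cyp3a11 in WSB/EiJ, Nat8 in 129S1/SvImJ, Nnmt in DBA/2J and 129S1/SvImJ and Slc26a2 in 129S1/SvImJ and CAST/EiJ (adjusted p from 0.0639 to 0.173), and the separate fit for Abcc1 in C57BL/6J, Arsa in C57BL/6J, Cyp2b10 in C57BL/6J, Maff in CAST/EiJ, Nnmt in C57BL/6J, Slc26a2 in CAST/EiJ, Slc35d2 in CAST/EiJ and Suox in C57BL/6J (adjusted p from 0.0977 to 0.231).

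The test of the difference itself found that the diet effect differed between strains for 39 of 58 members (67.2%) at an adjusted p below 0.05, against 37.5% of all genes tested. Set against the mean of the other 6 strains, the diet effect differed for 20 members in PWK/PhJ (16.3% of all genes), 17 in CAST/EiJ (14.5%), 9 in C57BL/6J (4.69%), 8 in DBA/2J (7.77%), 3 in A/J (0.466%), 2 in WSB/EiJ (0.947%) and 1 in 129S1/SvImJ (6.28%). Of the 20 in PWK/PhJ, 19 were lower than in the other strains (8.7% of all genes) and 1, Mgst2, was higher (7.59%). The 19 include Sult3a2 and Sult2a5, which met the count rule only through 1 or 2 strains, so their part in this count is a description. The mean effect over the 7 strains was called higher for 17 members and lower for 12, against 27.1% and 24.5% of all genes.

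On CD, 57 of the 58 members differed between strains, all but Ugt2a3, against 93.7% of all genes. Against the mean of the other strains, with the shares of all genes in parentheses, CAST/EiJ had 27 higher and 20 lower (32.4 and 31.5%), PWK/PhJ 31 higher and 19 lower (30.2 and 28.4%), C57BL/6J 20 higher and 21 lower (29.5 and 28.4%), 129S1/SvImJ 21 higher and 15 lower (23.6 and 20.6%), WSB/EiJ 15 higher and 20 lower (25.4 and 23.8%), DBA/2J 15 higher and 14 lower (22.9 and 19.4%) and A/J 12 higher and 17 lower (20.5 and 16.2%). Of the 58, Sult2a1, Sult2a2, Sult2a5, Ugt1a8 and Ugt8a met the count rule only through mice of 1 strain, and Sult3a2, Sult4a1 and Sult6b1 only through mice of 2 strains, with fewer than 5 mice at 10 reads in all the others together. These 8 could enter only by being higher in those strains, so the counts on CD are a description, and no size of difference is given here for these 8. Among the other 50, the largest positive log2 differences were those of Sult3a1 in CAST/EiJ (12.69 ± 0.34), Sult1e1 in WSB/EiJ (8.37 ± 0.42) and Sult3a1 in PWK/PhJ (8.31 ± 0.34). The largest negative ones were those of Gstm3 in PWK/PhJ (-7.46 ± 1.45), Ugt2b38 in 129S1/SvImJ (-6.85 ± 1.54), Ugt1a10 in PWK/PhJ (-6.52 ± 0.55), Sult3a1 in C57BL/6J (-5.67 ± 0.90) and Gstt1 in CAST/EiJ (-5.33 ± 0.16). Where a strain had few or 0 reads, as for Ugt1a10 in PWK/PhJ, the fitted size depends on the small offset added before taking logs. A gene with little RNA in a strain and one whose reads fail to align to the C57BL/6J reference cannot be told apart in these counts. In C57BL/6J, Sult1e1 was called lower on CD (-3.16 ± 1.09), but edgeR and DESeq2 gave 0.18 and 0.13, and Sult2a8 was at -1.59 ± 0.30 with CD mouse 2 and at -0.90 without it.

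**Figure D5:**
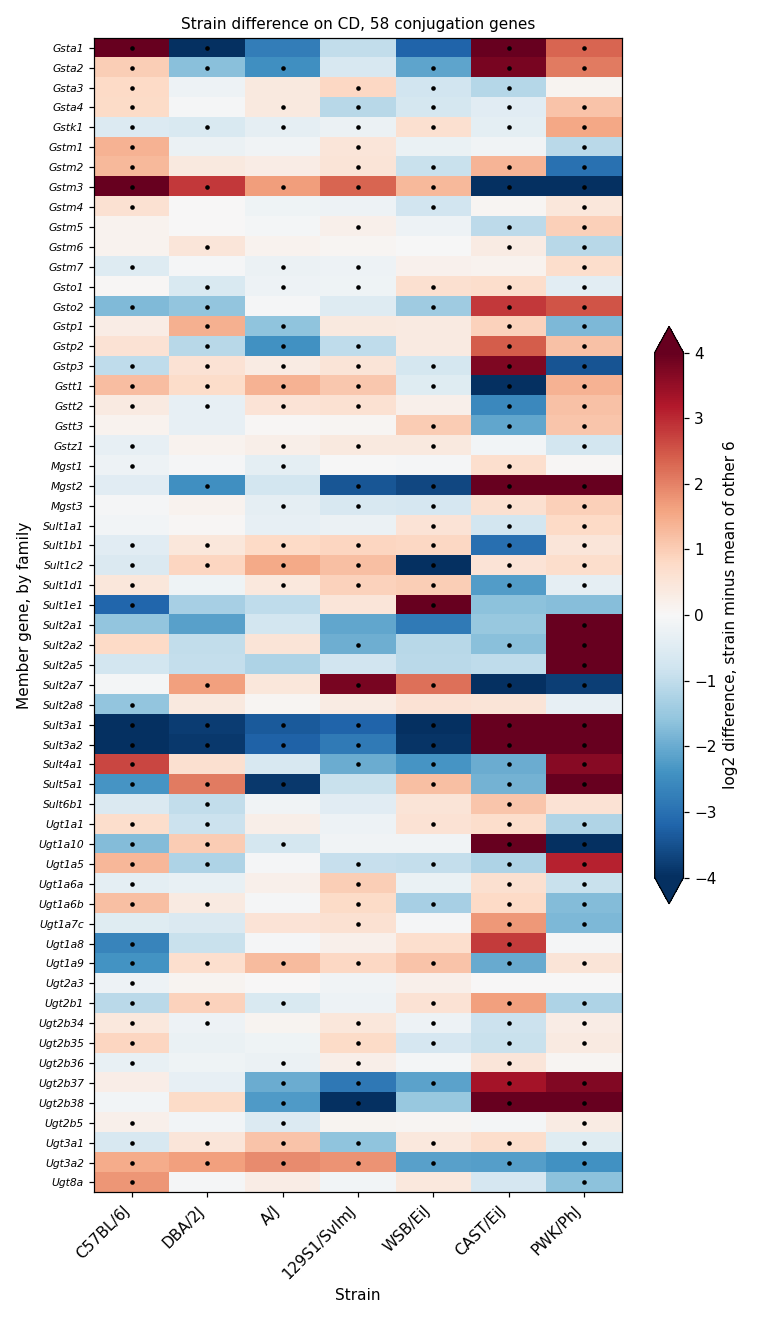
Log2 difference on CD between each strain (columns) and the mean of the other 6, for the 58 conjugation genes (rows, by family), with a dot where the adjusted p is below 0.05 and colours that end at -4 and 4. Sult3a1 is high in CAST/EiJ and PWK/PhJ, and Ugt3a2 is low in the 3 wild-derived strains. The 8 members that met the count rule only through 1 or 2 strains, Sult3a2 among them, are shown as a description.

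Summed over the 58 members, the group median went from 13635 CPM on CD to 17552 CPM on WD in CAST/EiJ and from 9693 to 12159 CPM in WSB/EiJ. C57BL/6J went from 11422 to 12689, 129S1/SvImJ from 11129 to 12155, DBA/2J from 10353 to 11290.2 and A/J from 8882 to 9962 CPM. The median sum over all 58 was lower on WD in PWK/PhJ alone, 8007 against 9313 CPM. The GST sum was lower on WD in 3 strains, going from 2909 to 2285 CPM in PWK/PhJ, from 5799 to 5447 in C57BL/6J and from 4308 to 4015 in DBA/2J. SULT sums were highest in CAST/EiJ, at 3796 CPM on CD and 3835 CPM on WD. These sums are descriptions without a test, and abundant genes weigh most in them.

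Outside the 4 families, 119 genes in 8 lists were counted, of which 6 lists hold genes that supply, accompany, export or regulate the conjugation reactions, 1 known targets of the xenobiotic receptors and 1 genes that differ between male and female mouse liver. The numbers higher and lower on WD, with their percent of the 119 and then the percent of all genes, were 31 and 9 in 129S1/SvImJ (26.1 and 7.56%, against 14.5 and 13.6%). They were 29 and 4 in DBA/2J (24.4 and 3.36%, against 10.2 and 7.77%), 25 and 6 in C57BL/6J (21.0 and 5.04%, against 14.3 and 11.9%) and 20 and 6 in CAST/EiJ (16.8 and 5.04%, against 9.77 and 9.73%). The remaining strains had 17 and 8 in A/J (14.3 and 6.72%, against 4.39 and 4.64%), 16 and 1 in WSB/EiJ (13.4 and 0.84%, against 4.97 and 3.97%) and 16 and 21 in PWK/PhJ (13.4 and 17.6%, against 15.1 and 14.5%). The share called higher was thus above that of all genes in 6 strains and below it in PWK/PhJ, and the share called lower was below that of all genes in 5 strains and above it in A/J and PWK/PhJ, with no test of either difference. The lists were chosen with earlier results of these data known, so these shares are a description. Of 10 tested genes of PAPS supply and sulfate handling, 5 were higher in DBA/2J, 4 in C57BL/6J and 129S1/SvImJ and 1 to 3 in the other strains, with 1 lower in C57BL/6J. They included the sulfate transporter Slc26a2 in DBA/2J (log2 fold change 0.68 ± 0.13, adjusted p = 9.8e-05), the sulfite oxidase Suox in WSB/EiJ (0.46 ± 0.10, adjusted p = 0.000488) and the lysosomal sulfatase Arsa in A/J (0.61 ± 0.15, adjusted p = 0.00427). Of 11 genes of UDP-glucuronic acid supply, 3 were higher in CAST/EiJ, 2 in C57BL/6J and DBA/2J, and 1 in 129S1/SvImJ and WSB/EiJ, and 1 was lower in each of C57BL/6J, A/J and PWK/PhJ. Rgn rose in DBA/2J (0.73 ± 0.15, adjusted p = 0.000125) and the nucleotide sugar transporter Slc35d2 in CAST/EiJ (0.58 ± 0.13, adjusted p = 0.000724). Ugp2, which makes UDP-glucose, was higher in C57BL/6J (0.37 ± 0.12, adjusted p = 0.0192) and lower in PWK/PhJ (-0.53 ± 0.14, adjusted p = 0.00187).

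Of 18 glutathione genes, 1 to 4 were higher in each strain, and up to 2 were lower except in PWK/PhJ, where 4 were. Slc7a11, the cystine importer, went from a mean of 0.123 ± 0.0976 (SD, n = 7) to 1.02 ± 0.270 CPM (SD, n = 6) in 129S1/SvImJ (log2 fold change 3.27 ± 0.59, adjusted p = 1.09e-05 by limma-voom) and was also higher in WSB/EiJ and PWK/PhJ. Chac1, which degrades glutathione, was higher in 4 strains, with 1.72 ± 0.34, adjusted p = 6.08e-05 in 129S1/SvImJ. Ggt6 was higher in A/J, WSB/EiJ (0.97 ± 0.18, adjusted p = 5.56e-05) and CAST/EiJ. Of 10 export transporters, 2 to 5 were higher in each strain and 1 was lower in DBA/2J. Abcg2 rose in all 7 strains, by 0.51 to 1.25, and Abcb1a in 4, with 1.88 ± 0.32, adjusted p = 2.38e-05 in A/J. The conjugate exporter Abcc1 rose in C57BL/6J, 129S1/SvImJ (1.07 ± 0.19, adjusted p = 6.81e-06) and PWK/PhJ. Of 20 other conjugating enzymes, 4 to 6 were higher in each strain, with 1 lower in 129S1/SvImJ, 2 in CAST/EiJ and 6 in PWK/PhJ. Nnmt, which methylates nicotinamide, rose in C57BL/6J, DBA/2J and 129S1/SvImJ by 1.25 to 1.87, and Ephx1, an epoxide hydrolase, rose in 6 strains by 0.57 to 1.32. Nat8, which acetylates cysteine conjugates, rose in A/J (1.74 ± 0.39, adjusted p = 0.00146) and 129S1/SvImJ and fell in PWK/PhJ (-0.70 ± 0.19, adjusted p = 0.00288). Of 18 receptors and regulators, 0 to 3 were higher and 0 to 5 lower in a strain, and Foxa2 rose in 129S1/SvImJ (1.01 ± 0.22, adjusted p = 0.000292). The repressor Bcl6 fell in A/J (-1.67 ± 0.57, adjusted p = 0.0486), a call lost without CD mouse 1, 2, 3 or 5 (adjusted p = 0.121, 0.11, 0.0871 and 0.0629), with RIN in the fit (adjusted p = 0.0506), with upper-quartile scaling (adjusted p = 0.0568) and when every gene of any count was tested (adjusted p = 0.114). Maff, a partner of NRF2, rose in C57BL/6J (0.99 ± 0.20, adjusted p = 0.00011) and fell in CAST/EiJ (-0.62 ± 0.21, adjusted p = 0.023), the latter call being lost with cohort in the fit (adjusted p = 0.0508).

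Known targets of NRF2, AHR, CAR and PXR outside the 4 families gave 12 of 22 higher in 129S1/SvImJ, 8 in DBA/2J, 6 in A/J, 5 in PWK/PhJ, 4 in C57BL/6J, 2 in CAST/EiJ and 3 in WSB/EiJ, with 3 lower in PWK/PhJ, 2 in C57BL/6J and 1 each in A/J and 129S1/SvImJ. Cyp3a11, a PXR-responsive P450, rose in 5 strains, among them CAST/EiJ (log2 fold change 3.32 ± 0.23, adjusted p = 1.68e-20). The CAR-responsive Cyp2b10 rose in PWK/PhJ (3.56 ± 1.16, adjusted p = 0.0136), and Cyp2b13 in A/J (3.50 ± 0.39, adjusted p = 1.34e-10). Cyp2b10 was also called higher in C57BL/6J (2.15 ± 0.63, adjusted p = 0.00616), but edgeR gave 0.66 (adjusted p = 0.455), DESeq2 0.68 (adjusted p = 0.489), cohort in the fit 1.57 (adjusted p = 0.0562) and a separate fit an adjusted p of 0.137. In 129S1/SvImJ (1.63 ± 0.64, adjusted p = 0.0462) the call was lost with edgeR (adjusted p = 0.0671), DESeq2 (adjusted p = 0.0713) and every gene of any count tested (adjusted p = 0.0735). The last list holds 17 genes known to differ between male and female mouse liver. It pools male- and female-predominant genes, and its counts were not divided by sex. Of the 17, 5 were lower and 0 higher in PWK/PhJ, against 14.5 and 15.1% of all genes. Among them Cyp3a41a (-8.20 ± 0.52, adjusted p = 7.26e-23) and Cyp3a44 (-6.75 ± 0.67, adjusted p = 1.63e-13) fell in the PWK/PhJ mice in which Sult3a1 and Sult3a2 fell. The same list gave at most 3 calls in either direction in the other strains and 0 in DBA/2J by limma-voom, where 4 of the 17 had an unadjusted p below 0.05, 3 were called by edgeR and 4 by DESeq2. In PWK/PhJ the summed cholangiocyte markers also went from a median of 139.9 to 403 CPM, with 5 of 7 called higher, and the stellate cell and fibroblast markers from 196 to 509 CPM, with 5 of 8 called higher, and their part in these results was not tested.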

How the data were processed

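Liver RNA of 93 mice was sequenced on a BGISEQ-500, and the deposited values are raw counts per gene that the authors made after alignment with STAR 2.7.1a to GRCm38/mm10, per the labels and the study's methods. The annotation release and the strand setting of the counting are not given in the sources used here. Gene symbols, pseudogene labels and exon lengths were taken from a GENCODE annotation of the same build. Every count column was mapped to 1 mouse by its label, and groups are strain by diet. Of the 53465 genes, 53360 were paired with a symbol. Table lines for unmapped reads (1.66 to 14.8%), reads aligned to several places (8.03 to 12.2%), reads in no feature (3.82 to 5.54%) and reads overlapping several genes (3.69 to 5.67%) were left out of library sizes and tests, which left 40020424 to 49894856 reads per library. No pair of mice had identical counts.

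Counts were scaled by TMM factors (0.8099 to 1.2674), filtered with filterByExpr (minimum count 10, 19110 genes) and fitted with limma-voom (R 4.3.3, limma 3.58.1, edgeR 4.0.16), with 1 mean for each of 14 groups. Contrasts were WD minus CD in each strain, their mean, their differences between strains, and each strain against the mean of the other 6 on CD, with Benjamini-Hochberg adjustment over all genes at 0.05. CPM were computed with the TMM factors, and the pipeline was tested on simulated data. Mice are the replicates. Each p-value sets a difference against a spread between mice within groups, which the main fit estimated over all 14 groups together.

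The members, the 8 gene lists and the alternatives were chosen with earlier results of these data known. Named with values were, per strain, up to 2 members with the largest called rise and 2 with the largest called fall (mean of at least 1 CPM) on WD, and likewise on CD, members called in 1 direction in 5 or more strains or in both directions, the 8 largest F values, the most abundant member of each family per kb, and up to 3 called genes per list; other values are said to lie outside this rule. A gene of the lists that this rule selects is not reported here. Alternatives were edgeR's quasi-likelihood test, DESeq2 1.42.0, upper-quartile factors, 2 other count filters, cohort or RIN (7.0 to 9.7) in the fit, separate fits, sample quality weights, single mice left out and another gene length. Promoters came from RefSeq on GRCm38.p6.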

Additional observations from a re-analysis of the deposited data

Results flagged for a closer look

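Single mice lay far from the rest of their group for 12 of the 79 groups of 5 to 8 mice tested among the named members. The nominal rate of about 1 in 20 holds for independent, normally distributed values. These CPM were not transformed and the same mice recur across members, so that rate is only a rough guide. PWK/PhJ CD mouse 3 had 588 CPM against 82.7 to 165 CPM in the others for Sult3a1 and 73.1 CPM against 5.43 to 14.4 CPM for Sult3a2. C57BL/6J CD mouse 2 had 3.85 CPM against 0 to 0.0825 CPM of Sult1e1, C57BL/6J WD mouse 6 4.86 CPM against 0.0564 to 0.815 CPM, and 129S1/SvImJ CD mouse 7 1.60 CPM against 0.147 to 0.607 CPM. WSB/EiJ WD mouse 4 was low for Gsta2, with 3.40 CPM against 16.8 to 24.8 CPM. CAST/EiJ CD mouse 2 was high for Gstm3, with 2.93 CPM against 0.103 to 1.02 CPM, and for Gstm4, with 101 CPM against 27.9 to 49.9 CPM. The others were Ugt1a6b in WSB/EiJ CD mouse 1 (22.0 CPM against 2.84 to 9.18 CPM), Ugt2b37 in C57BL/6J WD mouse 7 (27.8 CPM against 1.79 to 13.0 CPM), Gstp3 in 129S1/SvImJ WD mouse 3 (36.7 CPM against 25.0 to 28.1 CPM) and Gsta1 in DBA/2J CD mouse 1, which had 0.0448 CPM where the other 5 had 0 reads.

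Diet effects differed between strains for 39 members by limma's F test (67.2%, against 37.5% of all genes tested). The 8 largest F values belonged to Ugt2b34 (33.6), Sult1a1 (24.1), Sult3a1 (13.9), Ugt1a6b (11.0), Ugt1a9 (10.0), Gsta4 (9.09), Ugt1a10 (9.01) and Ugt1a5 (8.84). Against the mean of the other strains, with the share of all genes in parentheses, the diet effect differed for 20 members in PWK/PhJ (16.3%), 17 in CAST/EiJ (14.5%), 9 in C57BL/6J (4.69%), 8 in DBA/2J (7.77%), 3 in A/J (0.466%), 2 in WSB/EiJ (0.947%) and 1 in 129S1/SvImJ (6.28%).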

How the results depend on the processing

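Of 428 counts and levels recomputed under other settings, 408 stayed within 1.5 times the reported value, or for sums and levels within the spread between mice, and of 5865 values of single called genes, 5718 kept their direction and their side of the threshold. Many of these settings left out 1 mouse, which changes little in contrasts of other strains, so both shares are raised by them. Of 343 single gene calls, 277 stayed past the threshold under every alternative that tested them. Limits of depth and design stand with this: genes near 1 CPM or below rest on few reads, DESeq2 was not run for the F tests, and the every-mouse filter tested only 36 of the 58 members. With that filter, the counts called (reported count in parentheses) were 13 (20) on WD in C57BL/6J, 13 (20) in DBA/2J and 12 (20) in PWK/PhJ, 35 (57) differing between strains on CD, and on CD 18 (29) in DBA/2J, 23 (36) in 129S1/SvImJ, 29 (47) in CAST/EiJ and 31 (50) in PWK/PhJ. A separate fit for each strain called 10 (20) members on WD in C57BL/6J and 8 (3) in A/J, and 16 (31) genes of the 8 lists in C57BL/6J and 62 (40) in 129S1/SvImJ. In A/J DESeq2 called 7 (3) and sample quality weights 14 (3) members, and the weights called 41 (25) list genes in A/J, 63 (40) in 129S1/SvImJ and 26 (17) in WSB/EiJ. Testing every gene with any count gave 11 (18) in WSB/EiJ. In C57BL/6J edgeR called 11 higher and 9 lower, against 14 and 6 reported. With the length of the longest transcript, Mgst1 was at 2155 and Gstp1 at 776 CPM per kb, with the same order of the 4 most abundant members. The CD difference of Sult1e1 in C57BL/6J changed sign with edgeR (0.18) and DESeq2 (0.13). The cause of these shifts was not tested, apart from the fewer genes that the every-mouse filter left.

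Leaving out single mice (each A/J CD mouse, and 4 mice chosen after seeing the data: C57BL/6J CD 2 and WD 3, WSB/EiJ WD 4 and PWK/PhJ CD 3) gave 18 to 21 members called on WD in C57BL/6J, 20 to 21 in DBA/2J, 2 to 3 in A/J, 18 each time in 129S1/SvImJ, 18 to 20 in WSB/EiJ, 15 each time in CAST/EiJ and 20 to 21 in PWK/PhJ. Cohort, RIN and upper-quartile scaling moved none of the counts by over 1.5 times. Cohort was fitted within each strain, so cohort differences between strains remain in the strain comparisons. Upper-quartile scaling of the family sums was also chosen after seeing the data. No paired analysis was possible because the labels number no replicates, and the mouse numbers here follow the order of the samples.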
